A study of Mus musculus with 2 samples.

Results

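The genes described here encode collagens, the proteins that process and crosslink them, other components of extracellular matrix, and surface, keratin and transcription factor markers of fibroblasts and mesothelium. They were chosen by name, as a list of 44 genes, with earlier results of these data known. Of these, 43 had at least 1 probe set that the array annotation assigns to that gene alone, with 86 such probe sets between them, out of 18193 genes so named on the array. Efemp2, a fibulin, had no such probe set and was not analysed here.

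RNA came from peritoneal macrophages of C57BL/6J mice aged 8 weeks and was read on 3' expression arrays from Affymetrix, with 1 array for each group. The resident group came from untreated mice. For the elicited group, mice were given 1 mL of 3% thioglycollate into the peritoneal cavity, a sterile irritant broth that recruits leukocytes, and cells were taken 3 days later. In both groups, per the labels' protocols, cells adhered to dishes for 2 h and loose cells were washed off, so the macrophages were selected by adherence and not by sorting. The series description speaks of overnight culture instead, so the time in culture is uncertain, and the number of mice pooled was not stated in the sources used here. With 1 array per group there was no replicate error and no test between conditions, and every difference below is a difference between these 2 arrays. In a bulk sample such as these, more cells of a type and more RNA per cell cannot be told apart.

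Fibrillar collagens are made as procollagen chains that fold into a ropelike helix in the endoplasmic reticulum, are trimmed outside the cell, assemble into fibrils and are crosslinked by lysyl oxidases. Proteoglycans and matricellular proteins bind these fibrils, while laminins, nidogens, perlecan and type IV collagen form the sheetlike basement membrane under epithelia. In the peritoneum these products are known chiefly from fibroblasts and from mesothelium, the keratin-bearing cell layer that lines the cavity. Macrophages are known for secreting fibronectin and for taking up and degrading collagen.

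Values are MAS5 signals, linear intensities scaled by the authors so that both arrays had the same trimmed mean. A floor for background was set at a signal of 82.2, the 95th percentile of 126 probe sets for gene families such as olfactory receptors that macrophages are not thought to express. Signals at or below it were raised to it, so a ratio against such an array is a bound, written as at least N-fold. A gene's signal is that of its probe set with the highest mean over both arrays. Background was higher on the resident array, where the same families alone had a 95th percentile of 92.7 against 67.9 on the elicited array. Over the 11499 genes above the floor on at least 1 array the median log2 ratio of elicited over resident signal was -0.03. Scaling to equal medians moved it to 0.25, quantile normalization to 0.16, a loess fit to 0.07 and scaling on the spiked hybridisation controls to -0.30. The share of higher genes among all those past 2-fold was 40.5% in the deposited values, and 66.0%, 57.9%, 50.4% and 21.5% under those 4 scalings.

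Collagen and matrix transcripts were mostly at background on the resident array and well above it on the elicited one. Of the 43 genes, 18 exceeded the floor on the elicited array alone, 16 on both arrays, 2 on the resident array alone and 7 on neither. Over all named genes, 4.11% were above it on the elicited array alone and 5.12% on the resident array alone. At least 2-fold higher on the elicited array were 21 of the 43 (48.8%), beside 5.08% of all named genes and 8.04% of those above the floor on either array. At least 2-fold lower were 2 (Fn1 and Col14a1), beside 7.46% and 11.8%. At 4-fold the counts were 12 higher and 0 lower, beside 1.77% and 2.75% of genes above the floor. The 18 genes measured on the elicited array alone could only come out higher, and over all genes in that position 24.3% were at least 2-fold higher. Among the 18 genes 11 passed 2-fold as bounds. Of the 16 genes measured on both arrays 10 were past 2-fold upwards and 1, Fn1, downwards, beside 7.56% and 11.1% of all genes measured on both. Over these 16 the median log2 ratio was 1.51, beside -0.02 over all 9820 such genes. Of the listed genes, 18 exceeded the floor on the resident array, but only 14 exceeded that array's own background of 92.7. Sparc, Col3a1, Col4a2 and Col18a1, counted here as measured on both arrays and higher, lay below it. Against that background their ratios are bounds. The count of 21 became 25 with equal medians, 25 after quantile normalization, 24 after loess and 19 on the hybridisation controls.

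**Figure D1:**
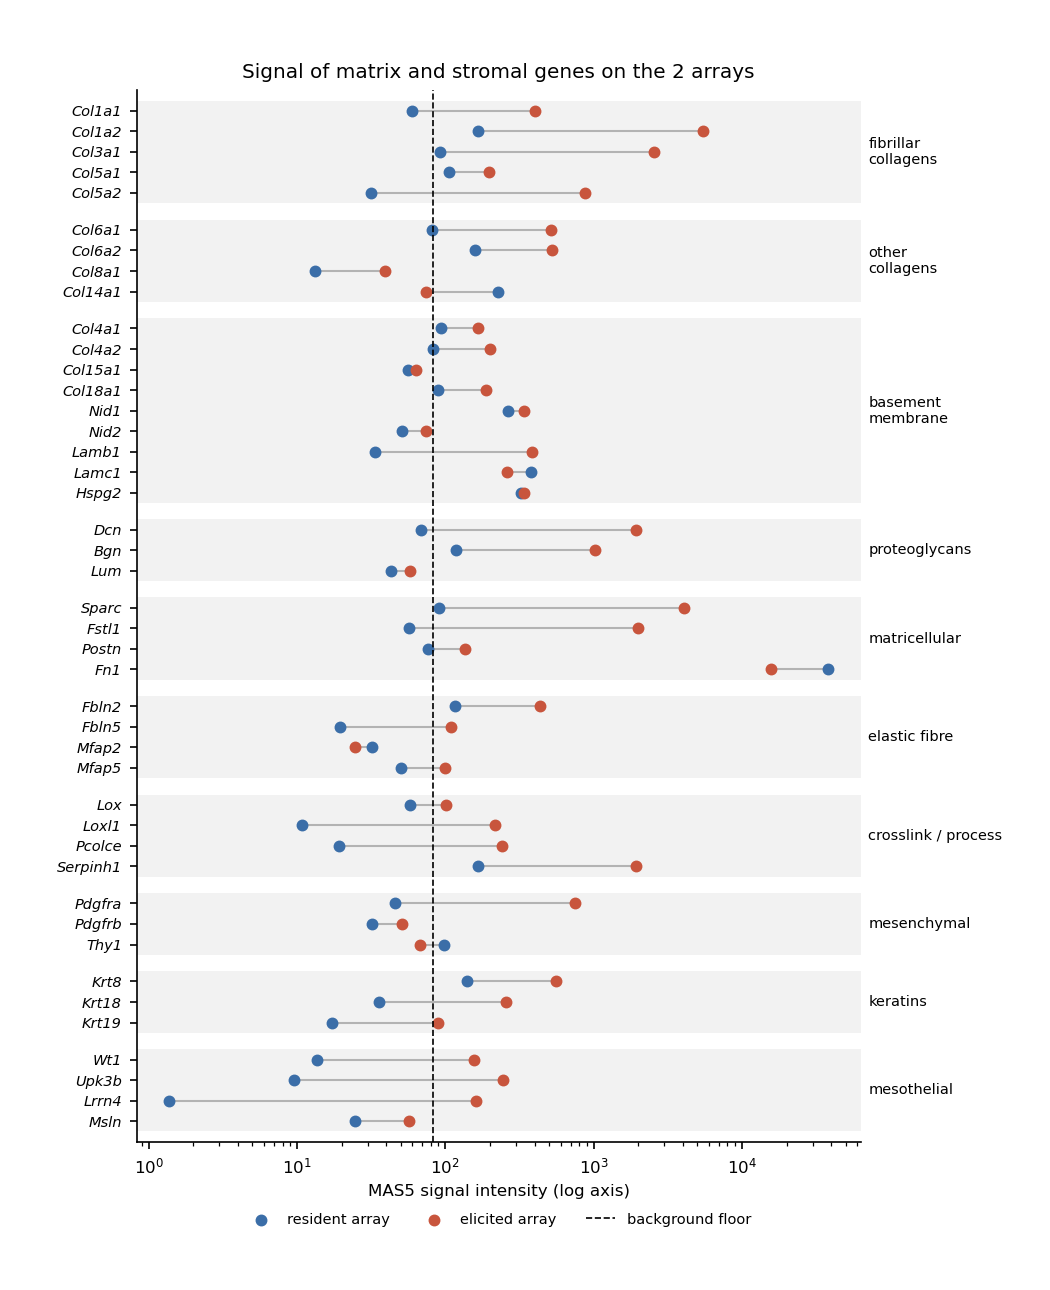
MAS5 signal intensity (log axis) of 43 matrix and stromal genes, in rows grouped by role, on the resident array (blue) and the elicited array (red), with 1 array per group and hence no error bars; the dashed line is the background floor of 82.2. Sparc, Col1a2, Col3a1, Dcn and Fstl1 show ratios of at least 16-fold, from 166 or less on the resident array to 1945 or more on the elicited array, while Fn1 lies far to the right with the elicited array lower.

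The ratios were at least 8-fold for 9 of the genes, namely Sparc, Col1a2, Col3a1, Fstl1, Dcn, Serpinh1, Col5a2, Pdgfra and Bgn. These 9 were picked by their ratios, and any part of upstream sequence in the differences was not tested. The 250 bases upstream of the start are shown for 6 of them. These 6 are those whose window in the RefSeq table for GRCm38.p6 begins at the annotated edge of the gene. They lie at chr11:55420081-55420330 on the minus strand for Sparc, chr6:4505368-4505617 on the plus strand for Col1a2 and chr1:45311288-45311537 on the plus strand for Col3a1. For Fstl1 the window is chr16:37776805-37777054 on the plus strand, for Serpinh1 chr7:99353240-99353489 on the minus strand and for Bgn chrX:73483351-73483600 on the plus strand. Capitals mark matches, on either strand, to the CCAAT box (CCAAT), the TATA box (TATAAA), the GC box (GGGCGG) and the AP-1 site (TGANTCA), and overlapping matches run together.
Sparc: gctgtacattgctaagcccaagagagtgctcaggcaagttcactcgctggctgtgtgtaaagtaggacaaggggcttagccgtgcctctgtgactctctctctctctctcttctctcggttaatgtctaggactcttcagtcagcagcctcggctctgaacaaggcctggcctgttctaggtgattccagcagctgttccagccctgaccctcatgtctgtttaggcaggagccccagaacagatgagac
Col1a2: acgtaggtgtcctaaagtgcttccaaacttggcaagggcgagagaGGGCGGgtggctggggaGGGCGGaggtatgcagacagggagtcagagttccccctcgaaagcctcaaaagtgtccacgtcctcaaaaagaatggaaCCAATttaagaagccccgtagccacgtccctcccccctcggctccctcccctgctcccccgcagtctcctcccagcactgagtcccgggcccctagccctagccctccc
Col3a1: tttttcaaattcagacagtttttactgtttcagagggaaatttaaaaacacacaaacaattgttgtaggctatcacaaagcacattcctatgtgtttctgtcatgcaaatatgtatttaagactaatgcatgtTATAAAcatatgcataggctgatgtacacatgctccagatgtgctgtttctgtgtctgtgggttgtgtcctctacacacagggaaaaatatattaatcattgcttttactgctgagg
Fstl1: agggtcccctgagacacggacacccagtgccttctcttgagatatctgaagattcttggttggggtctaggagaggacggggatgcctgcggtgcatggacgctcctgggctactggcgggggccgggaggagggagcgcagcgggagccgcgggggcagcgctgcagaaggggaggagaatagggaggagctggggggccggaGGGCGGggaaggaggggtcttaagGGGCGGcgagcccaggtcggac
Serpinh1: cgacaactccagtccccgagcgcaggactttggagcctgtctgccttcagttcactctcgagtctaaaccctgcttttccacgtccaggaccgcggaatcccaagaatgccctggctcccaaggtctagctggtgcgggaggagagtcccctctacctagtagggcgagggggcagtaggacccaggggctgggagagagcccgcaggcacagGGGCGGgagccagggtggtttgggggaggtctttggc
Bgn: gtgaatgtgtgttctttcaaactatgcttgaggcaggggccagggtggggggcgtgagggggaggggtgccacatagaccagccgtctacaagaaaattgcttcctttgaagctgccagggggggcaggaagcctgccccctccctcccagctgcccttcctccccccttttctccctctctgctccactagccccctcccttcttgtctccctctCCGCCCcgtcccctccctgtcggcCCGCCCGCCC

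Of the 4 motifs, the GC box was the one most of the 6 windows shared. It stood in those of Col1a2, Fstl1, Serpinh1 and Bgn, with the most, 3, in Bgn, where the matches lie on the opposite strand. Col1a2 also held a CCAAT box 109 bases upstream of the start. Col3a1 held a TATA box 117 bases upstream and was the only one of the 6 that was poor in G and C (35.2%, against 54% in Sparc and 62% to 68% in the other 4). The window of Sparc held none of the 4 motifs. Over the 28 listed genes with a window, 17 (60.7%) held a GC box, beside 32.7% of all 32851 windows, and 7 (25%) a CCAAT box, beside 33.8%. A TATA box and an AP-1 site were each found in 1 of the 28, beside 12.4% and 6.75% of all windows. The median share of G and C over all windows was 52.4%, and the motif shares were not adjusted for base composition. A match is a run of letters and not a shown binding site.

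**Figure D2:**
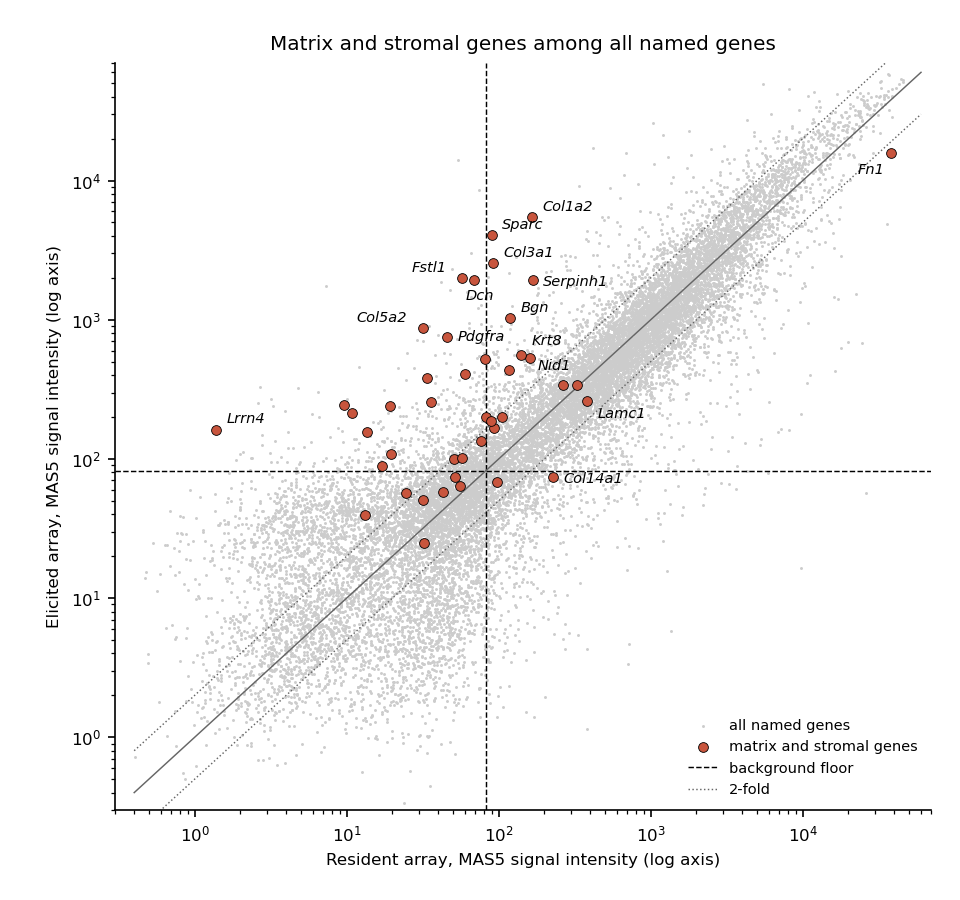
MAS5 signal intensity on the elicited array against that on the resident array (both log axes) for all named genes (grey) and the 43 matrix and stromal genes (red); dashed lines mark the floor of 82.2, the solid line equality and dotted lines 2-fold. Most red points lie above the upper dotted line and near or left of the vertical floor, and Fn1 and Col14a1 lie below the lower dotted line.

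Most fibrillar collagen transcripts were higher on the elicited array. Of the 5 chains, 4 were at least 4-fold higher. Col1a2, a chain of type I collagen, had signals of 166 (resident array) and 5452 (elicited array), 32.9-fold higher. Later pairs of signals are given in this order, resident first. A further probe set of Col1a2 gave at least 24.7-fold (65.1 and 2028), and the remaining one was at or below the floor on both arrays. Col1a1, the partner chain of the same protein, had signals of 60.0 and 405 and was at least 4.93-fold higher, with at least 2.72-fold at its other probe set. Both chains were thus higher on the elicited array, and since the ratio of Col1a1 is a bound, how far the chains differed is not known.

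Type III collagen, which forms mixed fibrils with type I in soft tissue, followed the same direction. Its gene Col3a1 had signals of 92.3 and 2555, 27.7-fold higher, and at least 5.73-fold at its other probe set (21.4 and 471). The resident signal of Col3a1 lay below the 92.7 of that array's own background, and counted from there it was at least 27.6-fold. Type V collagen starts fibrils and limits their width. Col5a2 had signals of 31.6 and 869 and was at least 10.6-fold higher, with at least 2.59-fold at its other probe set. Col5a1 had signals of 106 and 199, a ratio of 1.88, and its log2 ratio of 0.91 passed 2-fold with equal medians, quantile normalization and loess, reaching 1.39. Another Col5a1 probe set was at least 2.23-fold higher (34.1 and 183), and the remaining one was at or below the floor on both arrays.

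Other collagens went both ways. Type VI collagen forms beaded filaments around cells. Col6a1 had signals of 81.0 and 519 and was at least 6.31-fold higher. Col6a2, its partner chain, had signals of 160 and 528 (3.30-fold higher) at a probe set that can bind related transcripts, and at least 7.30-fold at the other. Col14a1 encodes a collagen that coats fibrils, and its signals of 228 and 74.4 made it at least 2.77-fold lower. Its other probe sets were at or below the floor on both arrays, and its log2 ratio of -1.47 shrank to -0.39 with the floor at the 99th percentile of the silent families (a signal of 174). Col8a1, of a short-chain network collagen, was at or below the floor on both arrays.

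Basement membrane genes differed far less. Of 9 genes, 3 were at least 2-fold higher (Lamb1, Col4a2 and Col18a1), none was 2-fold lower, and their median log2 ratio was 0.83 over the 7 above the floor, against 3.40 for the 5 fibrillar chains. These 2 medians were not tested against each other. The type IV chain genes Col4a1 and Col4a2 had signals of 93.2 and 166 (1.78-fold) and of 82.2 and 201 (2.44-fold). A further Col4a1 probe set was at least 3.56-fold higher (51.1 and 292). Col18a1, whose product releases endostatin, had signals of 88.9 and 188, 2.11-fold higher, but its other probe set pointed the other way (93.9 and 45.1). Against the resident array's own background Col4a2 was at least 2.17-fold and Col18a1 at least 2.02-fold higher. On the hybridisation controls both fell short of 2-fold, with lowest log2 ratios over the scalings of 0.99 and 0.78.

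Of the laminin chains, only Lamb1 passed 2-fold, and it did so at a single probe set. Lamb1 had signals of 33.8 and 385 and was at least 4.68-fold higher at a probe set that may bind several transcripts. A second gave at least 1.11-fold and the other 2 were at or below the floor on both arrays, so the log2 ratio of 2.23 shrank to 0.11 with the mean of probe sets. Lamc1, a chain found in most laminins, was within 2-fold, with signals of 379 and 261 and of 278 and 151 at its 2 probe sets, and its log2 ratio of -0.54 ranged from -0.84 to -0.11 over the scalings. Nid1, which bridges laminin and type IV collagen, had signals of 264 and 340. Hspg2, the gene for perlecan, had signals of 326 and 342. At these probe sets both exceeded the resident array's own background and lay within 2-fold. A second Hspg2 probe set exceeded the floor on the elicited array alone (9.83 and 116, at least 1.41-fold). The log2 ratio of Hspg2, 0.07, ran from -0.23 on the hybridisation controls to 1.28 with the mean of probe sets. A second Nid1 probe set read 74.4 and 87.3, and the remaining one was at or below the floor on both arrays. Col15a1 and Nid2 were at or below the floor on both arrays.

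The small proteoglycans that decorate collagen fibrils were represented by Dcn, Bgn and Lum. Decorin gene Dcn had signals of 68.8 and 1945 and was at least 23.7-fold higher. Its other probe set was at or below the floor on both arrays (4.34 and 2.10), and with the mean of probe sets Dcn did not exceed the floor. Biglycan gene Bgn had signals of 118 and 1028, 8.68-fold higher, and its other 2 probe sets gave at least 5.29-fold and at least 10.3-fold. Lum, which encodes lumican and sits beside Dcn in the genome, had signals of 43.1 and 57.9 at its single probe set and was at or below the floor on both arrays.

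Matricellular genes included Sparc and Fstl1, both at least 16-fold higher. Sparc, a collagen-binding glycoprotein, had signals of 90.2 and 4070, 45.1-fold higher, and 20.0-fold at a second probe set (111 and 2216). Its resident signal lay below the 92.7 of that array's own background, and counted from there the ratio was at least 43.9-fold. Its other probe set read 80.0 and 124, at least 1.51-fold. Fstl1, a secreted glycoprotein related to Sparc and follistatin, had signals of 57.0 and 1984, at least 24.1-fold higher, and its other probe set gave at least 29.0-fold. Sparc, Col1a2, Col3a1, Fstl1 and Dcn were 5 of only 26 genes on the array (0.226% of those above the floor) that were at least 16-fold higher. Postn, the gene for periostin, had signals of 76.1 and 135, a bound of at least 1.65-fold.

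Fibronectin was the exception. Fn1 had signals of 38130 and 15810 and was 2.41-fold lower. Its second probe set read 2226 and 213, 10.5-fold lower. The log2 ratio of -1.27 at the first became -0.96 with equal medians, within 2-fold, and kept its sign under all 11 alternatives tried. Fn1 stood far above the floor on both arrays, unlike the collagens and proteoglycans, so its resident signal is measured and not a bound.

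**Figure D3:**
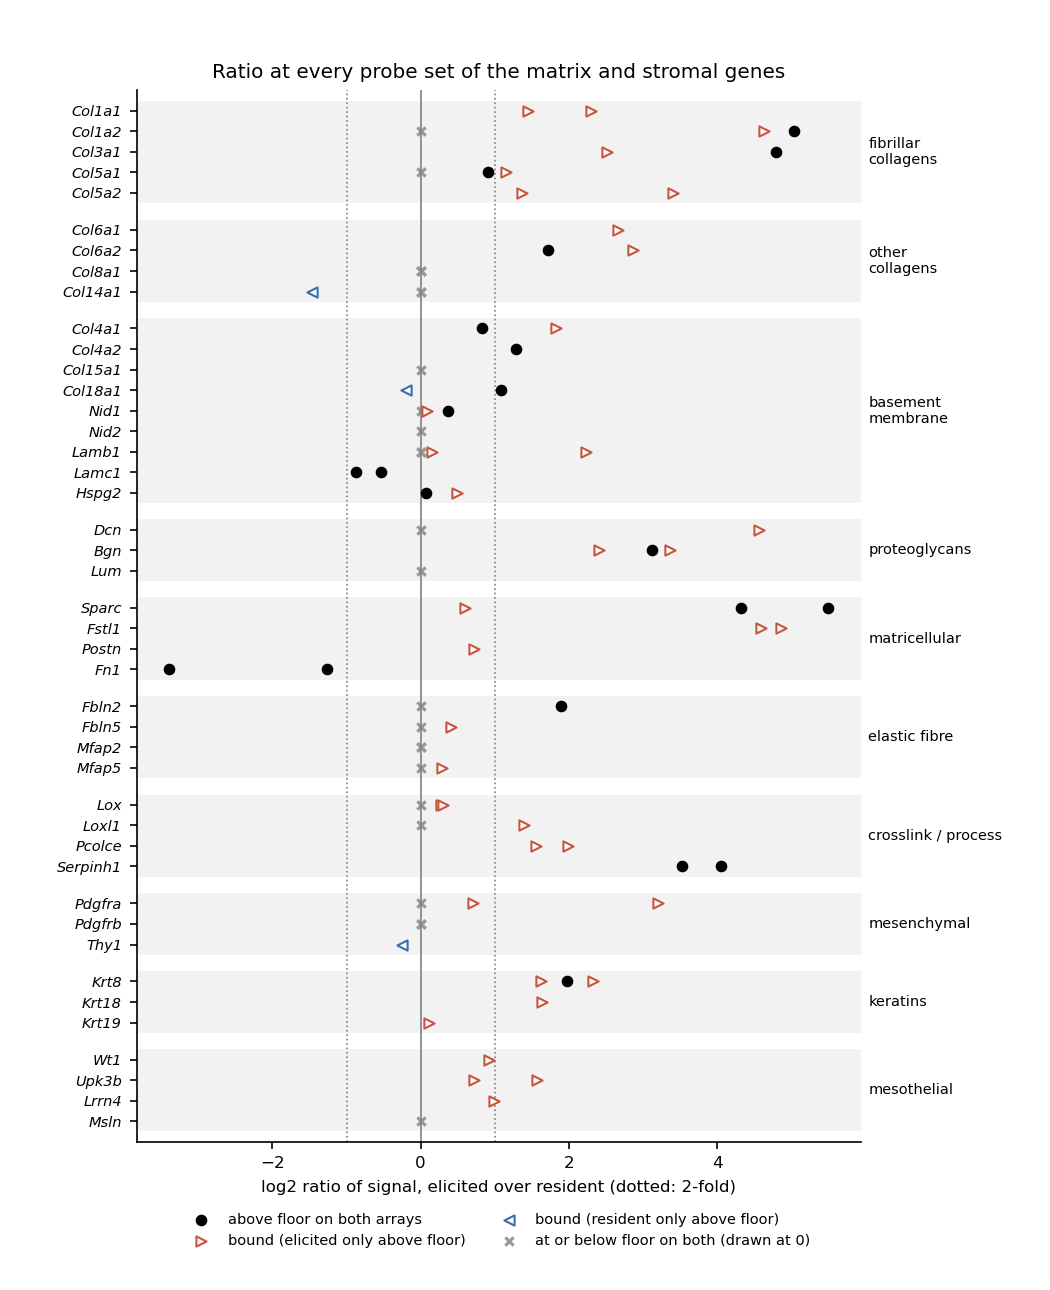
Log2 ratio of elicited over resident signal at each of the 86 probe sets of the 43 genes, with filled points above the floor on both arrays, triangles for bounds and crosses (drawn at 0) for probe sets at or below the floor on both; dotted lines mark 2-fold. Probe sets of Serpinh1, Fstl1 and Bgn lie close together, those of Sparc and Lamb1 spread widely, and both Fn1 probe sets lie left of -1.

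Agreement between probe sets can be read where a gene has several. Of the 23 genes at least 2-fold apart, 16 were read by more than 1 probe set that exceeded the floor on at least 1 array. In 15 of these 16 all such probe sets pointed one way, the exception being Col18a1, and in 11 all of them passed 2-fold. A probe set above the floor on the elicited array alone could only point upwards, so much of this agreement was fixed in advance. Only 4 of the listed genes had more than 1 probe set above the floor on both arrays. Probe sets of a gene can read different transcript ends and share the RNA, so they are not replicates. The SD between probe sets of a gene was 0.48 on the log2 scale, from 4465 genes whose several probe sets exceeded the floor on both arrays.

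Elastic fibre genes were dim. Fbln2, a fibulin of vessel and connective tissue matrix, had signals of 117 and 437, 3.72-fold higher, and its other probe set was at or below the floor on both arrays. Fbln5, an organiser of elastic fibres, reached 109 on the elicited array from 19.6, and the microfibril gene Mfap5 reached 100.2 from 50.7. Against the floor these are bounds of at least 1.33-fold and at least 1.22-fold. Mfap2 was at or below the floor on both arrays.

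Genes for collagen processing were higher in 3 of 4 cases. Serpinh1, the collagen chaperone of the endoplasmic reticulum, had signals of 167 and 1925, 11.5-fold higher, and 16.6-fold at its other probe set (100.3 and 1669). Pcolce, which speeds the trimming of procollagen, had signals of 19.2 and 241 and was at least 2.94-fold higher, with at least 3.96-fold at its other probe set. Of the lysyl oxidases, Loxl1 had signals of 10.8 and 215, at least 2.62-fold higher, and its other probe set was at or below the floor on both arrays. Lox itself reached 101 from 57.7, a bound of at least 1.23-fold, and its second such probe set read alike (55.2 and 99.8).

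Of 3 surface markers of mesenchymal cells, 1 passed 2-fold. Pdgfra, the alpha receptor for platelet-derived growth factor, had signals of 45.7 and 755 and was at least 9.19-fold higher. A second probe set gave at least 1.63-fold (79.9 and 134), and the other was at or below the floor on both arrays. With the mean of probe sets the log2 ratio of Pdgfra shrank from 3.20 to 1.07. Pdgfrb, the beta receptor, which marks pericytes and many fibroblasts, was at most 50.9 on either array and not above the floor. Thy1, a surface glycoprotein of fibroblasts and T cells, had signals of 97.9 and 67.8, a bound of 1.19-fold that lies within the spread between probe sets.

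Of 3 keratins of simple epithelia, which mesothelial cells carry, Krt8 and Krt18 were at least 2-fold higher and dim. Krt8 had signals of 141 and 555, 3.94-fold higher, and its other 2 probe sets gave at least 5.00-fold and at least 3.08-fold. Krt18, the obligate filament partner of Krt8, had signals of 35.7 and 256 and was at least 3.12-fold higher. Krt19 read 17.1 and 89.2, the latter above the floor but not above the resident array's own background. Among the mesothelial genes, Upk3b, a uroplakin, had signals of 9.56 and 244, at least 2.96-fold higher, though its other probe set gave at least 1.65-fold. The transcription factor gene Wt1 reached 156 from 13.7 and Lrrn4, of a neuronal leucine-rich repeat protein, 162 from 1.38. The bounds for Wt1 and Lrrn4, at least 1.90-fold and at least 1.98-fold, fell just under the threshold of 2-fold and those for Upk3b and Krt18 lay above it. Msln, which encodes mesothelin, was at or below the floor on both arrays (24.6 and 57.4).

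Wt1, Lrrn4, Krt19, Postn, Fbln5, Mfap5 and Lox were under the stricter floor of 174 on the elicited array at every probe set, so their presence there rests on the floor chosen. Col4a1 was under it at its brightest probe set and above it at the other (292). With that floor, Col4a2, Col18a1, Krt18, Upk3b, Loxl1 and Pcolce came within 2-fold, with log2 ratios of 0.56 for Krt18 and 0.48 for Upk3b.

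Genes that neighbour each other were set side by side. In the RefSeq gene table no other protein-coding gene lies between Col3a1 and Col5a2, Col4a1 and Col4a2, Col6a1 and Col6a2, Dcn and Lum, or Krt8 and Krt18. The log2 ratios were 4.79 and 3.40 for Col3a1 and Col5a2, 0.83 and 1.29 for Col4a1 and Col4a2, and 2.66 and 1.72 for Col6a1 and Col6a2. For Krt8 and Krt18 they were 1.98 and 1.64. The ratios for Col5a2, Col6a1 and Krt18 are bounds, and these genes, above the floor on the elicited array alone, could only come out higher. In these 4 pairs both neighbours were higher on the elicited array, whereas in the fifth Dcn was at least 23.7-fold higher and Lum was not above the floor.

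Further matrix genes were mostly within 2-fold or at background. Of 64 such genes, 58 had a probe set, and 37 of these exceeded the floor. At least 2-fold higher were 9 of the 58 (15.5%), beside 5.08% of all named genes, and lower were 4, beside 7.46%. The median log2 ratio over the 37 was 0.32, beside -0.03 over all genes above the floor. In collagen biosynthesis the counts were 2 higher and 1 lower of 23 genes with a probe set. The lysyl hydroxylase gene Plod2 was at least 2.70-fold higher (19.6 and 222) and P3h4, which takes part in lysyl hydroxylation, at least 3.13-fold (60.4 and 257). Plod3, another lysyl hydroxylase, was 2.60-fold lower (3862 and 1484). P4hb, a subunit of prolyl hydroxylase that also serves general protein folding, had signals of 9606 and 14535, and Ppib, a helper of collagen folding, 9388 and 12385.

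Among 27 further structural genes 4 were at least 2-fold higher and 3 lower. The matricellular growth regulators Ccn1 (92.8 and 450) and Ccn2 (147 and 711) were 4.86-fold and 4.84-fold higher, and Col6a3, of type VI collagen, 3.89-fold (83.1 and 323). Ccn4 was at least 2.56-fold higher. Thbs1, a thrombospondin that macrophages also secrete, was lower, with a log2 ratio of -3.45 (16078 and 1466), Emilin1 3.96-fold lower and Col27a1 at least 2.10-fold lower. Among 8 genes for collagen uptake and receptors, the mannose receptor Mrc1 (674 and 2666, 3.96-fold), the collagen-binding inhibitory receptor Lair1 (2.52-fold) and Ddr2 (at least 2.51-fold) were higher.

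Markers of the labelled cell type were strong on both arrays. All 8 macrophage markers were above the floor on both, with signals from 1344 to 36845 (resident) and from 1957 to 40130 (elicited), and their summed signal was 141135 and 137236. Among them Fcgr1 was 2.55-fold higher, and Itgam and Cd14 were 2.99-fold and 2.73-fold lower. Markers of other cells were set beside the matrix genes because such cells are known to make matrix, and their part in the result was not tested. Of 9 further mesothelial genes, 1 exceeded the floor on the resident array and 8 did on the elicited one. Their summed signal was 850.2 and 1610 and single genes ranged from 3.49 to 663 and from 71.1 to 333. On the elicited array Krt7 (99.35), Bnc1 (158), Rspo1 (96.2) and Muc16 (94.4) were under the stricter floor of 174. The presence of these genes there thus rests on the floor chosen, whereas Gpm6a, Nkain4, Igfbp6 and Aldh1a2 exceeded the stricter floor too. Igfbp6, Gpm6a and Nkain4 were at least 3.89-fold, 2.90-fold and 2.44-fold higher. Aldh1a2, which makes up most of the resident sum, went the other way (663 and 333). The summed signals of these lists include signals at or below the floor.

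Fibroblast genes outside the list were mostly at or below the floor on both arrays. Of 13 with a probe set, 3 resident and 2 elicited signals exceeded the floor, with summed signals of 863 and 673, ranging from 6.54 to 265 and from 3.36 to 113. None was at least 2-fold higher and Meox1 (265 and 25.2) was at least 3.23-fold lower. Prrx1 (36.9 and 108) and Cd34 (19.6 and 113) exceeded the floor on the elicited array alone, at least 1.31-fold and 1.38-fold higher. Tcf21 and Twist2, like Meox1, did so on the resident array alone. The other 8, Pi16, Dpt, Fap, Twist1, Prrx2, Gli1, Pdgfrl and Clec3b, were at or below the floor on both arrays. Of 8 smooth muscle and pericyte genes, 2 resident and 4 elicited signals exceeded the floor (summed signal 855 and 6704, range 5.45 to 494 and 4.83 to 5232). The contractile genes Acta2 (494 and 5232, 10.6-fold) and Tagln (at least 8.35-fold) were higher and Des was 2.95-fold higher, while Myh11, Cnn1, Rgs5 and Mcam were at or below the floor on both arrays. Acta2 makes up most of the sum on each array.

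Of 9 endothelial genes, 3 resident and 4 elicited signals exceeded the floor, and their summed signals were 734 and 1833 (range 11.8 to 246 and 8.59 to 1276). Vwf, at 76.0 and 1276, was at least 15.5-fold higher and makes up most of the elicited sum. Kdr (61.0 and 145) and Flt1 (11.8 and 118) exceeded the floor in elicited cells alone, with bounds of 1.76-fold and 1.43-fold, whereas Cdh5, Tek and Emcn were at or below the floor on both arrays and Pecam1 was at least 3.00-fold lower. None of 4 adipocyte genes was above the floor on either array (summed signal 79.1 and 111, range 3.84 to 34.7 and 7.25 to 50.3). Of 6 epithelial genes, 1 resident and 2 elicited signals exceeded it (summed signal 204 and 301, range 1.48 to 119 and 1.76 to 110.0). B cell genes were lower in 3 of 5 cases, with summed signals of 12043 and 4557, ranging from 141 to 5281 and from 37.0 to 4078. Ms4a1, Cd79b and Cd79a had log2 ratios of -5.25, -4.58 and -3.51, the last a bound, while Cd22 (2269 and 4078), which makes up most of the elicited sum, and Pax5 were within 2-fold.

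**Figure D4:**
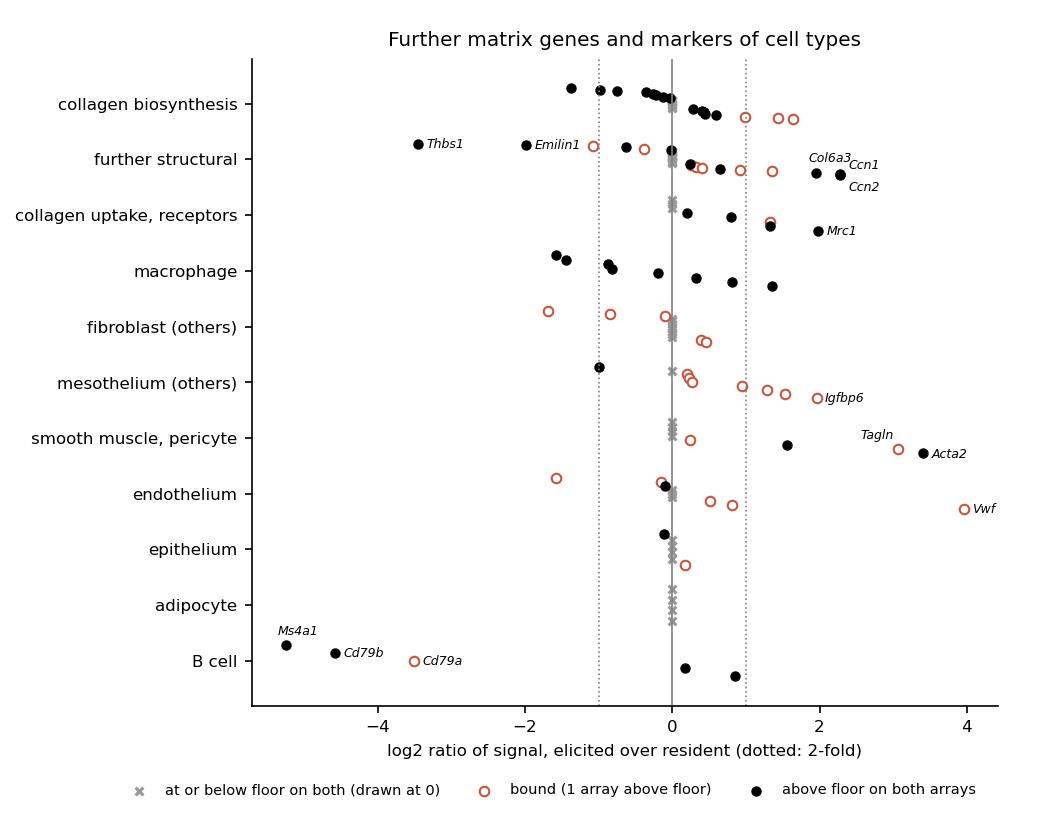
Log2 ratio of elicited over resident signal for further matrix genes (top 3 rows) and markers of cell types (lower 8 rows), with filled points above the floor on both arrays, open circles for bounds and crosses (drawn at 0) for genes at or below the floor on both; dotted lines mark 2-fold. Acta2, Tagln and Vwf lie farthest right, the other fibroblast genes lie between -1.69 and 0.46, and Thbs1 and 3 B cell genes lie farthest left.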

How the data were processed

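Total RNA (100 ng per array, per the labels' protocols) was read on 1 array for each of 2 groups, taken from GEO's labels. The authors deposited linear signal intensities for 45101 probe sets, and the submitters' processing notes name MAS5. Its version, scaling target and detection calls were not used here. The number of arrays, 1 per group, limits the precision.

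Probe sets with 1 gene in the platform annotation were kept (34945, of which 34741 matched the GRCm38.p6 RefSeq table by gene ID and took its symbol), and 932 naming several genes were left out. Signals were floored, log2-transformed and subtracted, with a threshold of 2-fold and no test. The floor used 252 values of silent families. Members and lists were chosen with earlier results of these data known. The rule for naming accounted for every listed gene and allowed up to 4 further matrix genes in each direction. The text departs from it by naming all 9 that were at least 2-fold higher. P4hb, Ppib and the marker genes named were chosen after their values were seen. Alternatives changed the scaling, floor, probe set and filter. The calculation was tested on simulated data with changes put only into genes well above the floor on both arrays. Recovery of bounds and of changes near the floor was not tested. Software was Python 3.11.15 with numpy 2.4.6, pandas 2.3.3, statsmodels 0.14.6 (loess span 0.4) and matplotlib 3.10.9.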

Additional observations from a re-analysis of the deposited data

How the results depend on the processing

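Of the 21 genes at least 2-fold higher on the elicited array, 14 stayed so in each of the 11 alternatives in which they were measured, and no gene at least 2-fold apart changed sign in any of them. A gene above the floor on 1 array alone cannot change sign when only the floor, pseudocount or filter changes. This holds for 11 of the 21 and for Col14a1, so much of the constancy of sign was fixed in advance. The number higher ranged from 15 (floor at the 99th percentile) to 25. The number at least 2-fold lower, 2 as reported, was 1 with equal medians, where Fn1 was within 2-fold. It was also 1 with the floor at the 99th percentile, with the floor as pseudocount and with the mean of probe sets, where Col14a1 was within 2-fold or not measured. The median log2 ratio of the 36 measured genes, 1.47 as reported, was 2.54 with a pseudocount of 1 and 0.98 when the 7 genes at or below the floor on both arrays were counted at 0. Of the values of single genes under the alternatives, 310 of 374 lay within 1 SD between probe sets of the value reported. Part of this was fixed in advance. Dropping the filter on dim genes cannot change a single gene's value, and leaving out probe sets that may bind several transcripts left most values as they were. No paired analysis was possible because each group has 1 array, and for the same reason no array could be left out. Signals near the floor limit what can be said of the dimmer genes.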
